A study of Mus musculus with 45 samples.

Results

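Messenger RNA of 10 genes that mark early B-lymphoid progenitors was followed in the fetal mouse liver: Rag1, Igll1, Vpreb1, Vpreb3, Cd79a, Cd79b, Ebf1, Pax5, Dntt and Il7r. Rows were taken by gene symbol, and the genes were chosen with earlier results of these data known. The table of 13449 genes that was used held 8 of the 10, and Vpreb1 and Dntt were not analysed here. Livers came from E15.5 fetuses of VavCre mothers and of fathers with both copies of Rpl5 or of Rps19 floxed. Rpl5 encodes a protein of the large ribosomal subunit and Rps19 one of the small subunit. There were 4 genotypes, and every fetus carried 1 floxed allele: VavCre Rpl5flox/+ against Rpl5flox/+, and VavCre Rps19flox/+ against Rps19flox/+. The Vav promoter drives Cre across blood cells, so a VavCre fetus keeps 1 intact copy of the gene there, and no group carried Cre without a floxed allele. Liver cells were treated with emetine, which arrests translating ribosomes, and separated with magnetic beads into Kit+ cells and, from the remainder, Ter119+ cells. Kit marks stem and progenitor cells and Ter119 marks maturing erythroid cells. Equal numbers of cells from fetuses of the same genotype were pooled before lysis, lysates were run on sucrose gradients, and messenger RNA captured from a cytoplasm and a polysome fraction was sequenced.

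The 45 libraries (24 cytoplasm, 21 polysome) fell into 16 groups, of which 14 held 3 libraries. VavCre Rpl5flox/+ Kit+ polysome held 1 library and Rpl5flox/+ Ter119+ polysome held 2. Depth was 22.9 to 70.1 M reads in Kit+ cytoplasm, 45.0 to 123 M in Ter119+ cytoplasm, 1.01 to 37.6 M in Kit+ polysome and 1.02 to 39.8 M in Ter119+ polysome. Of the polysome libraries 4 held under 2 M reads. Levels below are normalized counts, that is reads divided by the size factor of the library. In Kit+ cytoplasm 1 read was worth 0.137 to 0.471 normalized counts, while in Kit+ polysome it was worth 0.248 to 20.8. The targeted genes were lower in Kit+ cytoplasm: Rpl5 averaged 531 ± 81.3 in VavCre Rpl5flox/+ against 1046 ± 100.4 in Rpl5flox/+ libraries, and Rps19 averaged 12940 ± 1409 in VavCre Rps19flox/+ against 18037 ± 1985 in Rps19flox/+ libraries (SD, n = 3 each). In Ter119+ cytoplasm Rpl5 went against its label, with 499.9 ± 47.0 in the libraries labelled VavCre Rpl5flox/+ against 368 ± 83.6 in Rpl5flox/+ libraries (SD, n = 3 each). It did so on Ter119+ polysomes as well, with 547, 410 and 6334 in the libraries labelled VavCre Rpl5flox/+ against 110 and 226 in Rpl5flox/+ libraries. The value of 6334 is from replicate 3, with 1.02 M reads, 30.5 normalized counts per read and 69.4% of genes at 0. The Ter119+ cytoplasm libraries labelled VavCre Rpl5flox/+ also held more Kit and less of the erythroid markers, as given below. The part of this in the Rpl5 values was not tested. Rpl5 overlaps Dipk1a on chromosome 5, so its reads may include some of that gene. Nothing in the labels says that pools of a group came from separate litters, so each p-value reflects no more than how these pools varied.

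B cells begin in the fetal liver as progenitors that respond to interleukin 7 and switch on a fixed programme. The transcription factors Ebf1 and Pax5 set B-lineage identity, the Rag and terminal transferase enzymes rearrange the immunoglobulin genes, and the surrogate light chain pairs with the first heavy chain. Cd79a and Cd79b then carry the signal of that receptor into the cell. Such progenitors form a small part of the Kit+ cells, and Ter119+ erythroid cells do not make these proteins.

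The 8 genes moved together in Kit+ cells, so the 250 bases before a RefSeq start of 4 of them are printed to show which of a few fixed strings of letters they hold. The windows are from RefSeq on GRCm38.p6, the assembly also called mm10, which the submitters' processing notes name. Capitals mark matches, on either strand, to the EBF-type core CCCNNGGG, to an ETS-type core, CCGGAA, or to the E-boxes CAGGTG and CAGCTG. E proteins recognise these E-boxes.
Igll1, chr16:16863986-16864235, minus strand: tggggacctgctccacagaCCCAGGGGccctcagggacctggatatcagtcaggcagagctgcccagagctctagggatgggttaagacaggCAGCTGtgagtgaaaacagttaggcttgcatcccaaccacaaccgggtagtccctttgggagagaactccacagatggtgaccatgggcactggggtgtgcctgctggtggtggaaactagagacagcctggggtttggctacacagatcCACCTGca
Rag1, chr2:101649533-101649782, minus strand: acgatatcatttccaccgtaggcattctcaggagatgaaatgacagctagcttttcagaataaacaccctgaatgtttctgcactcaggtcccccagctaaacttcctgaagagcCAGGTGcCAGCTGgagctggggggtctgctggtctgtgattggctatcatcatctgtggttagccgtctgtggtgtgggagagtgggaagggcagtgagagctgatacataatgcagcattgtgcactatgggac
Cd79a, chr7:24897247-24897496, plus strand: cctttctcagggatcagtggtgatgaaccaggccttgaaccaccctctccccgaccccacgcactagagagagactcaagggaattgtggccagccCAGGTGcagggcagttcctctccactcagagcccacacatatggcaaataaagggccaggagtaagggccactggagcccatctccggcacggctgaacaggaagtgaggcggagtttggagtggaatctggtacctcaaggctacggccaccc
Vpreb3, chr10:75948050-75948299, plus strand: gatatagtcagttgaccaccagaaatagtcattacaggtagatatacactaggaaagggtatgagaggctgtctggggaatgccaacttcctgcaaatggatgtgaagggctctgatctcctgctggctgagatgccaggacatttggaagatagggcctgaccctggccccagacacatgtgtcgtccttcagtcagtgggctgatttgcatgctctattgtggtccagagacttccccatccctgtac
Igll1 was the only 1 of 9 genes with a window to hold CCCNNGGG, at 231 bases before its start, and 11.8% of 32851 mouse windows of this length hold that core. The E-box CAGGTG lay 8 bases before the start of Igll1 (read as CACCTG), 135 bases before that of Rag1 and 154 bases before that of Cd79a, and 17.2% of windows hold it. The E-box CAGCTG lay 158 bases before the start of Igll1 and 128 bases before that of Rag1, with 13.0% of windows holding it. The window of Vpreb3 held none of these letters, nor did those of Ebf1, Pax5, Il7r and Dntt, while that of Vpreb1 held CAGGTG. The Vpreb3 window lies inside the span given below for the gene, so it precedes a RefSeq start within that span and not the first base of the span. No window held CCGGAA, which 12% of windows hold, nor a longer EBF-type core that 0.779% hold. A match of letters is a description of the sequence and not evidence of binding. Sites that depart from these letters were not searched for, so a window without a match may still hold a site for these factors.

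The genes lie apart in the genome. Rag1 is at chr2:101638252-101649532, Igll1 at chr16:16860671-16863985, Vpreb3 at chr10:75943024-75949657, Cd79a at chr7:24897497-24901858, Cd79b at chr11:106311341-106314562, Ebf1 at chr11:44618100-45008096, Pax5 at chr4:44524748-44710694 and Il7r at chr15:9506159-9529941. Igll1 lies 4416 bases from Vpreb1, its partner in the surrogate light chain. Cd79a begins 7686 bases after the end of Rps19, the gene whose floxed allele was used in 1 of the lines.

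In Kit+ cytoplasm all 8 genes were lower with VavCre in both lines, by 1.85-fold to 9.19-fold with Rpl5 and by 9.50-fold to 91.8-fold with Rps19. No VavCre library of either line overlapped a library of its own flox group for any of the 8. In the test across all genes (limma, adjusted p below 0.05) 8 of 8 fell with Rpl5, where 16.4% of the genes tested fell. With Rps19 8 of 8 fell, where 26.1% of the genes tested fell. As the genes were chosen with earlier results of these data known, these counts describe the set and are not independent support. The median change of the 8 on the deposited log2 scale was -2.39 with Rpl5 and -2.98 with Rps19, beside medians of 0.03 and 0.01 over all genes tested. Groups that did not overlap, with VavCre lower, were found for 23.4% of all genes with Rpl5 and 29% with Rps19. Bulk RNA cannot tell fewer B-lymphoid cells apart from less RNA per cell.

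Ebf1, the factor that starts the B-lineage programme, had 10.6, 3.30 and 17.6 normalized counts in VavCre Rpl5flox/+ libraries, against 93.9, 95.4 and 95.1 in Rpl5flox/+ libraries. In the Rps19 line it had 0.548, 0 and 1.74 in VavCre Rps19flox/+ libraries, against 83.5, 52.9 and 29.8 in Rps19flox/+ libraries. The Rpl5flox/+ libraries lay close together while the Rps19flox/+ libraries spread widely, and every VavCre value lay below all of them. Pooled over the 3 libraries of a group, the level of Ebf1 was 7.88-fold lower with Rpl5 (95% counting interval 6.56 to 9.54) and 91.8-fold lower with Rps19 (49.6 to 192), from 10 reads against 679 in the Rps19 line. These intervals cover counting error only. Its log2 change was -2.32 (SE 0.31, adjusted p = 7.86e-05) with Rpl5 and -2.76 (SE 0.31, adjusted p = 1.08e-05) with Rps19.

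Pax5, which holds cells to the B lineage, had 11.6, 10.8 and 22.8 normalized counts in VavCre Rpl5flox/+ libraries, against 81.3, 144 and 116 in Rpl5flox/+ libraries. It had 1.78, 1.93 and 0.289 in VavCre Rps19flox/+ libraries, against 135, 65.8 and 31.4 in Rps19flox/+ libraries. The lowest flox library, Rps19flox/+ replicate 3, still stood above every VavCre library. The log2 change of Pax5 was -2.19 (SE 0.35, adjusted p = 0.000341) with Rpl5 and -2.86 (SE 0.35, adjusted p = 2.3e-05) with Rps19.

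Il7r, the interleukin 7 receptor chain on which early B cells depend, was the gene with the fewest reads. It had 5.31, 8.96 and 4.56 normalized counts in VavCre Rpl5flox/+ libraries, against 29.4, 36.2 and 25.8 in Rpl5flox/+ libraries. In VavCre Rps19flox/+ libraries it had 0, 1.16 and 0.579, against 23.0, 26.5 and 16.0 in Rps19flox/+ libraries. The groups were apart in both lines. The pooled level was 5.38-fold lower with Rpl5 (4.09 to 7.18) and 44.8-fold lower with Rps19 (22.4 to 105; 8 reads against 265).

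Rag1, a subunit of the recombinase that cuts immunoglobulin gene segments, had 16.9, 10.4 and 17.8 normalized counts in VavCre Rpl5flox/+ libraries, against 122, 164 and 154 in Rpl5flox/+ libraries. In VavCre Rps19flox/+ libraries it had 4.66, 0 and 2.31, against 121, 80.9 and 63.0 in Rps19flox/+ libraries. VavCre Rps19flox/+ replicate 2 had no Rag1 read among 49.4 M. The pooled level was 9.19-fold lower with Rpl5 (7.85 to 10.8) and 34.4-fold lower with Rps19 (25.2 to 48.0).

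Igll1 and Vpreb3 behaved alike. Igll1 encodes the lambda 5 part of the surrogate light chain. Its level was 36.7, 36.3 and 57.3 normalized counts in VavCre Rpl5flox/+ libraries, against 255, 336 and 318 in Rpl5flox/+ libraries. It had 9.18, 1.35 and 3.47 in VavCre Rps19flox/+ libraries, against 290.5, 133 and 115 in Rps19flox/+ libraries. Both VavCre groups lay below every flox library, and the log2 change was -2.48 (SE 0.30, adjusted p = 3.89e-05) with Rpl5 and -3.54 (SE 0.30, adjusted p = 1.24e-06) with Rps19. Vpreb3, an endoplasmic reticulum protein of pre-B cells related to the VpreB part, had 13.3, 14.6 and 17.6 in VavCre Rpl5flox/+ libraries, against 127, 136 and 156 in Rpl5flox/+ libraries. It had 1.78, 1.16 and 1.16 in VavCre Rps19flox/+ libraries, against 136, 72.2 and 64.6 in Rps19flox/+ libraries. Its adjusted p was the smallest of the 8 in each line, 2.79e-06 with Rpl5 and 2.82e-07 with Rps19.

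Cd79a and Cd79b, the signalling chains of the B-cell receptor, did not change equally. Cd79a had 47.0, 34.4 and 84.2 normalized counts in VavCre Rpl5flox/+ libraries, against 287, 395 and 389 in Rpl5flox/+ libraries. It had 11.6, 2.50 and 8.10 in VavCre Rps19flox/+ libraries, against 300.3, 192 and 150.1 in Rps19flox/+ libraries. Cd79b had 128, 156 and 131 in VavCre Rpl5flox/+ libraries, against 202, 262 and 289 in Rpl5flox/+ libraries. In VavCre Rps19flox/+ libraries it had 16.7, 17.7 and 14.8, against 198, 143 and 125 in Rps19flox/+ libraries. Cd79b was thus the gene with the smallest pooled ratio in each line, 1.85-fold lower with Rpl5 (1.74 to 1.97) and 9.50-fold lower with Rps19 (8.35 to 10.8). Cd79a was 5.95-fold lower with Rpl5 (5.48 to 6.48) and 27.8-fold lower with Rps19 (23.2 to 33.5). The log2 change of Cd79b with Rpl5 was -0.79 (SE 0.18, adjusted p = 0.0034), and that of Cd79a was -2.47 (SE 0.29, adjusted p = 3.39e-05).

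**Figure D1:**
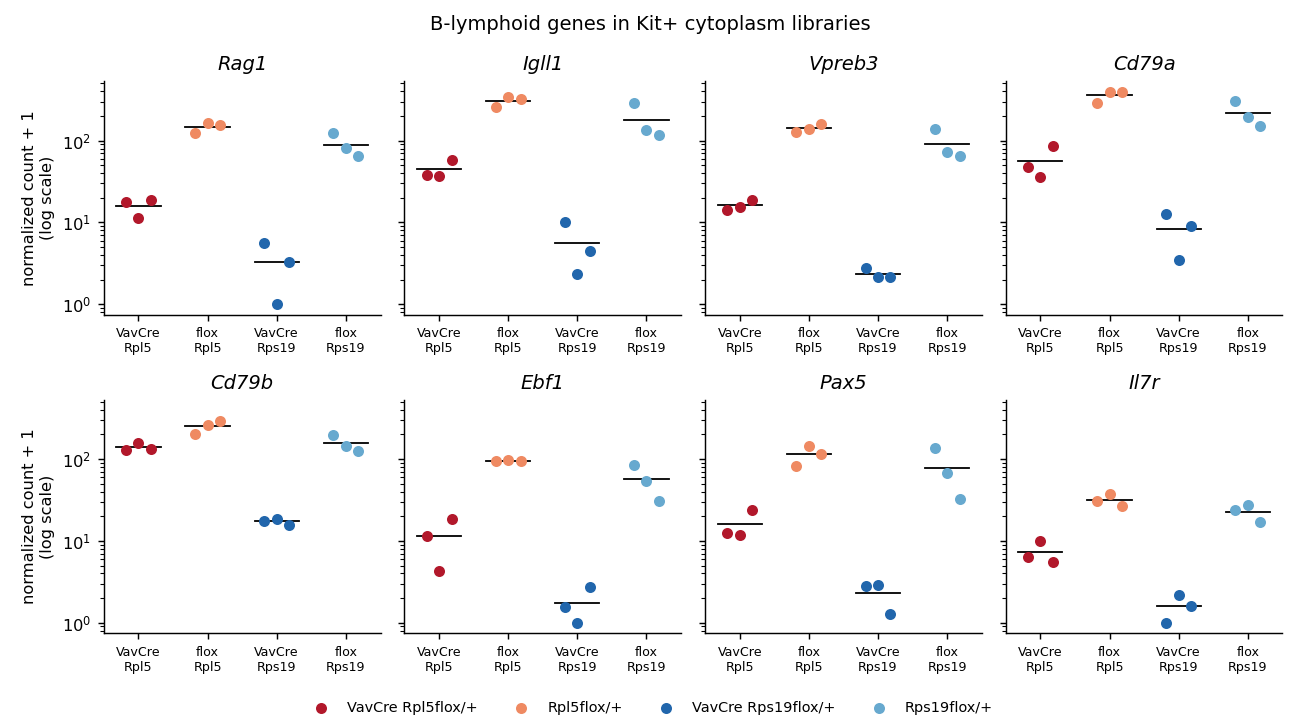
Normalized count plus 1 (log axis) of the 8 B-lymphoid genes in each Kit+ cytoplasm library, in 1 panel per gene; points are libraries (n = 3 per group) and black lines are group means. Every VavCre library of both lines lies below every library of its flox group, and Cd79b with VavCre Rpl5flox/+ lies nearest to its flox group.

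The reads of Cd79b over those of Cd79a were looked at in each library after these values were seen, so they are given as a description. The ratio was 2.72, 4.55 and 1.55 in VavCre Rpl5flox/+ Kit+ cytoplasm, against 0.703, 0.663 and 0.743 in Rpl5flox/+. It was 1.44, 7.08 and 1.82 in VavCre Rps19flox/+, against 0.661, 0.742 and 0.834 in Rps19flox/+. All 6 VavCre libraries had more Cd79b than Cd79a reads and all 6 flox libraries had fewer. The ratio of 7.08 rests on 13 reads of Cd79a. In Ter119+ cytoplasm the ratio was 2.35, 3.94 and 1.73 in the libraries labelled VavCre Rpl5flox/+, against 1.00, 1.08 and 1.06 in Rpl5flox/+. It was 3.00, 2.00 and 0.0909 in VavCre Rps19flox/+, against 0.702, 1.29 and 4.47 in Rps19flox/+, so the groups of the Rps19 line overlapped there. Neither gene's reads were divided by its length, so only the difference of the ratio between libraries can be read.

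**Figure D2:**
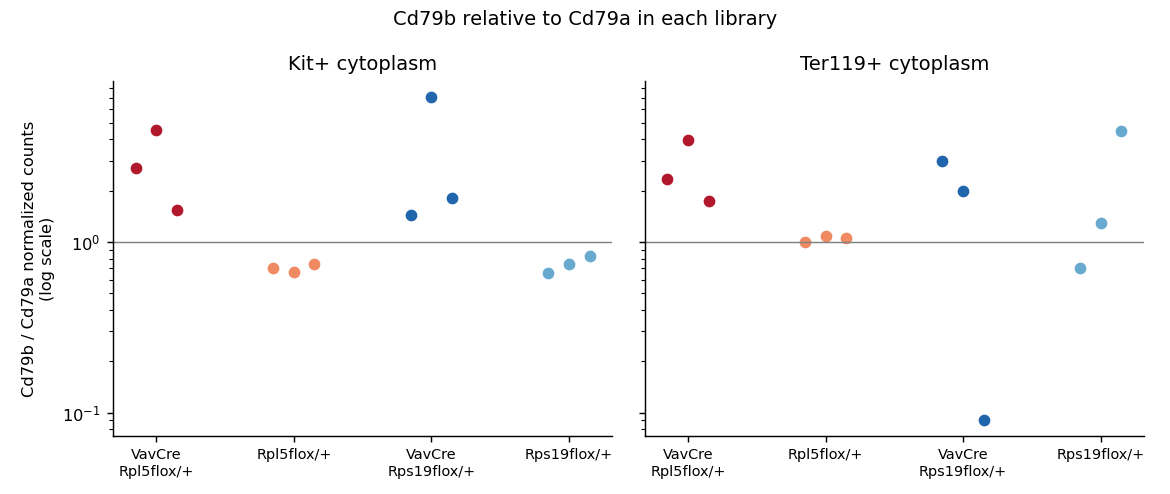
Reads of Cd79b over reads of Cd79a (log axis) in each cytoplasm library of Kit+ cells (left) and Ter119+ cells (right), with 3 libraries per group; the grey line marks equal reads. In Kit+ cells the 6 VavCre libraries lie between 1.44 and 7.08 and the 6 flox libraries between 0.661 and 0.834.

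Whether the lines differed was tested by taking the Rpl5 change and subtracting from it the Rps19 one. In Kit+ cytoplasm it was positive for all 8 genes, which means a smaller fall with Rpl5, and 2 of 8 passed the test, where 23.2% of all genes passed in this direction. These were Cd79b, with a difference of 1.71 (SE 0.25, adjusted p = 0.000122), and Cd79a, with 1.08 (SE 0.42, adjusted p = 0.0459). Igll1 had 1.07 (adjusted p = 0.0515), and it passed once replicate numbers were blocked (adjusted p = 0.00676), which made 3 of 8. The deposited transformation compresses differences among low values, and the VavCre Rps19flox/+ libraries were near its floor. On the log2 scale of the normalized count plus 1, 7 of 8 differed (all but Ebf1), by 1.75 to 2.32, and with voom on recovered reads 7 of 8 differed (all but Pax5), by 2.34 to 3.52. On the deposited scale the count was 1 when any of 8 libraries was left out (Rpl5flox/+ replicates 1, 2 and 3, Rps19flox/+ replicate 1, VavCre Rpl5flox/+ replicates 1 and 3, VavCre Rps19flox/+ replicates 2 and 3), and 5 without Rps19flox/+ replicate 3.

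**Figure D3:**
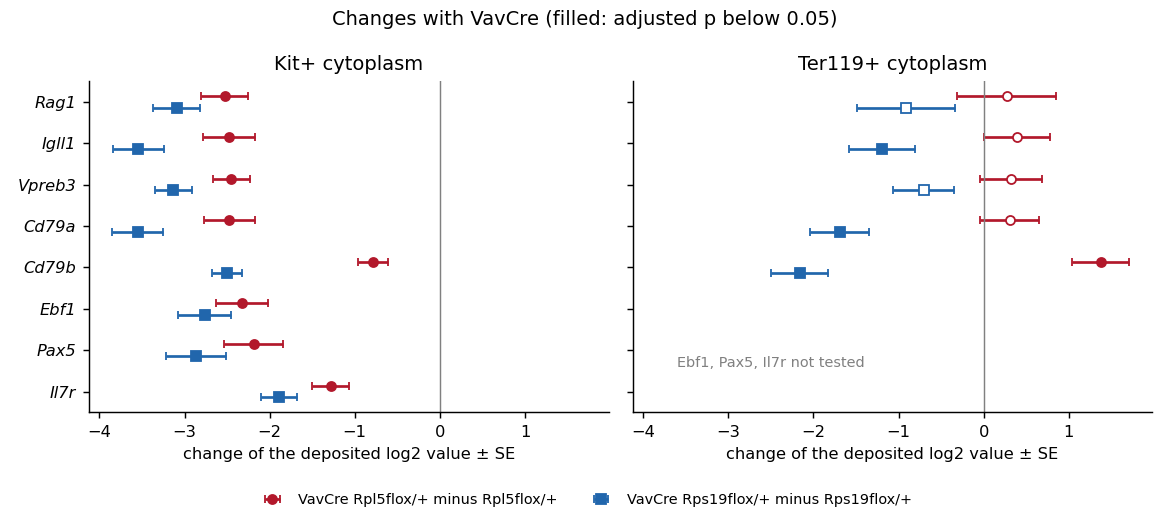
Change of the deposited log2 value with VavCre (VavCre minus flox, ± SE of the limma fit) for each gene in Kit+ cytoplasm (left) and Ter119+ cytoplasm (right), circles for Rpl5 and squares for Rps19; filled symbols passed at an adjusted p of 0.05. In Kit+ cells all 16 changes lie below 0, and in Ter119+ cells Cd79b is the only gene that passed with Rpl5, above 0.

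Across the 12 Kit+ cytoplasm libraries the genes followed each other. The Pearson correlation of each gene's log2 value with the mean of the others was 0.90 for Cd79b and 0.96 to 0.99 for the other 7. All 12 points share the split into VavCre and flox groups, so this describes the same difference once more. Genes outside the set with the most similar pattern, among 10900 compared, included Mzb1 (r = 0.989), Bfsp2 (0.987), Slamf6 (0.986), Blnk (0.985), Spib (0.982), Pou2af1 (0.979) and Arl5c (0.978). An r above 0.9 was found for 103 genes. Blnk is a B-cell adaptor protein, and Spib and Pou2af1 are regulators of B-cell transcription.

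Other genes of the B lineage did not all follow. Of 8 tested genes in a further list of B-lineage genes, 5 fell and 2 rose with Rpl5, and 6 fell and 1 rose with Rps19. Pou2af1 had 8.44, 24 and 28.8 normalized counts in VavCre Rpl5flox/+ Kit+ cytoplasm, against 147, 174 and 206 in Rpl5flox/+. The groups were apart, as for the 8 genes above. Btk, a kinase of B cells that myeloid cells also use, rose with Rpl5, at 1068 ± 20.9 in VavCre Rpl5flox/+ against 639 ± 26.6 in Rpl5flox/+ (SD, n = 3 each; log2 change 0.73, SE 0.08, adjusted p = 1.5e-05). Cd37, a tetraspanin of B cells and other leukocytes, also rose with Rpl5 (log2 change 0.80, SE 0.13, adjusted p = 0.000322).

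Of 16 regulators of B-cell specification and interleukin 7 signalling, 5 fell and 4 rose with Rpl5, and 6 fell and 4 rose with Rps19. Over all genes 16.4% fell and 20.8% rose with Rpl5, and 26.1% fell and 27.6% rose with Rps19, so the rises among these regulators were near the share of all genes. Lef1, a transcription factor of pro-B cells, fell in both lines, with a log2 change of -2.46 (SE 0.34, adjusted p = 0.000115) with Rpl5 and -2.57 (SE 0.34, adjusted p = 4.48e-05) with Rps19. Flt3, a cytokine receptor of early lymphoid and myeloid progenitors, had 13.4, 29.3 and 14.5 normalized counts in VavCre Rps19flox/+, against 129, 122 and 123 in Rps19flox/+ (log2 change -2.14, SE 0.20, adjusted p = 2.4e-06). The change of Flt3 differed between the lines, by 2.30 for Rpl5 minus Rps19 (SE 0.28, adjusted p = 3.68e-05). Spi1, a factor of myeloid cells and early B cells, also differed (2.34, SE 0.26, adjusted p = 2.0e-05). Il2rg, the chain that Il7r needs for signalling, rose with Rpl5 (log2 change 1.21, SE 0.18, adjusted p = 0.000182). Ikzf1, a factor of early lymphoid cells, fell with Rpl5 (log2 change -0.52, SE 0.09, adjusted p = 0.000878).

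Of 12 factors that join or repair rearranged genes, 1 fell and none rose with Rpl5, and 2 fell and 5 rose with Rps19. The shares that fell were below those of all genes in both lines. These are genes of all dividing cells as well. The 1 that fell with Rpl5 was Hmgb2, a chromatin protein that helps the recombinase, at 6411 ± 213 in VavCre Rpl5flox/+ against 10118 ± 870.2 in Rpl5flox/+ (SD, n = 3 each). Of 3 tested T, NK and innate lymphoid markers none passed with Rpl5, and Tcf7 and Lck, which act in T cells, fell with Rps19.

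Markers of other cells moved in the same libraries, beside the shares of all genes given above. Of 18 granulocyte and monocyte markers 14 rose and none fell with Rpl5, their summed level being 61660 to 121094 in VavCre Rpl5flox/+ Kit+ cytoplasm against 31239 to 34963 in Rpl5flox/+. With Rps19 all 18 fell, to a sum of 4240 to 8850.1 in VavCre Rps19flox/+ against 21229 to 29878 in Rps19flox/+. Of 10 stem and progenitor markers 8 rose with Rpl5 and 8 fell with Rps19. All 10 erythroid markers fell with Rpl5, and 2 fell and 1 rose with Rps19. Of 11 hepatocyte markers 11 rose with Rpl5 and 2 with Rps19, of 9 macrophage markers 2 rose with Rpl5 and 1 rose and 1 fell with Rps19, and of 7 megakaryocyte markers 2 rose and 2 fell with Rpl5 and 1 rose and 6 fell with Rps19. The B-lymphoid genes fell in both lines, while the granulocyte and monocyte markers moved in opposite directions. The part of these other cells in the fall of the B-lymphoid genes was not tested.

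Flox libraries of Ter119+ cells held less of this RNA than those of Kit+ cells. In flox libraries of the cytoplasm all 8 genes were lower in Ter119+ than in Kit+ cells, where 42.8% of all genes were lower, with a median change of -2.34 and the largest for Igll1 (-3.00, SE 0.27, adjusted p = 6.34e-08). The summed level of the 8 genes was 96.1 to 192 in Rpl5flox/+ Ter119+ cytoplasm and 1198 to 1570 in Rpl5flox/+ Kit+ cytoplasm. It was 105 to 226 in Rps19flox/+ Ter119+ cytoplasm and 595 to 1288 in Rps19flox/+ Kit+ cytoplasm. With VavCre Rpl5flox/+ the cell types overlapped, at 259 to 285 in the libraries labelled Ter119+ and 269 to 352 in Kit+ cytoplasm. Of the 8 genes 5 passed the filter on low values in the genotype comparisons of Ter119+ cytoplasm, and Ebf1, Pax5 and Il7r did not.

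In the libraries labelled VavCre Rpl5flox/+ Ter119+ the set was not lower. Cd79b rose, with 116, 142 and 101.5 normalized counts in the libraries labelled VavCre Rpl5flox/+ against 21.9, 50.3 and 45.5 in Rpl5flox/+ libraries, and the groups were apart (log2 change 1.37, SE 0.33, adjusted p = 0.00235). It was the 1 gene of 5 that passed, where 35.3% of all genes rose. Cd79a had 49.2, 36.1 and 58.7 in the libraries labelled VavCre Rpl5flox/+ against 21.9, 46.6 and 43.0 in Rpl5flox/+ libraries, and these groups overlapped. The other tested genes overlapped too, with log2 changes of 0.27 (Rag1), 0.39 (Igll1) and 0.32 (Vpreb3) and adjusted p between 0.383 and 0.696. Ebf1 had 16.7, 9.12 and 7.42 in the libraries labelled VavCre Rpl5flox/+ against 7.58, 11 and 6.41 in Rpl5flox/+ libraries. Pooled over the group, the level of Pax5 in Rpl5flox/+ was 1.12 times that in the libraries labelled VavCre Rpl5flox/+ (0.751 to 1.65) and that of Il7r was 0.819 times (0.502 to 1.30), with 1 inside both counting intervals. It was also inside those of Igll1 (0.631 to 1.01) and Ebf1 (0.449 to 1.10). The intervals of Rag1 (0.450 to 0.905), Vpreb3 (0.470 to 0.942), Cd79a (0.614 to 0.921) and Cd79b (0.272 to 0.391) lay below 1. These intervals cover counting error only.

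In VavCre Rps19flox/+ Ter119+ cytoplasm the set was nearly absent. Ebf1, Pax5 and Il7r had 0 reads in all 3 VavCre Rps19flox/+ libraries, against 50, 107 and 38 reads over the 3 Rps19flox/+ libraries. With a floor of 3 reads over the group, they were at least 18.1-fold, 38.8-fold and 13.8-fold lower. Of the 5 tested genes 3 fell, where 13.3% of all genes fell: Cd79b (log2 change -2.16, SE 0.33, adjusted p = 0.000592), Cd79a (-1.69, SE 0.34, adjusted p = 0.00337) and Igll1 (-1.19, SE 0.39, adjusted p = 0.0364). Cd79b had 8.23, 3.41 and 0.507 in VavCre Rps19flox/+ libraries against 41.0, 39.6 and 75.1 in Rps19flox/+ libraries. Cd79a had 2.74, 1.71 and 5.58 in VavCre Rps19flox/+ libraries against 58.4, 30.7 and 16.8 in Rps19flox/+ libraries. Groups were apart for 3 of the 5 genes (Igll1 too), as for 22.1% of all genes with VavCre lower. For Igll1 the gap was narrow, with 0.427 to 2.03 in VavCre Rps19flox/+ against 2.65 to 23.0 in Rps19flox/+ libraries. The value of 2.65 stands for 3 reads in replicate 3. Rag1, with 8.23, 0 and 0 in VavCre Rps19flox/+ against 31.8, 10.2 and 0 in Rps19flox/+ libraries, overlapped and did not pass. The call of Igll1 was lost in 5 of 6 fits with a library left out (all but Rps19flox/+ replicate 3), with adjusted p up to 0.137, and the count of genes was then 2 to 4.

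**Figure D4:**
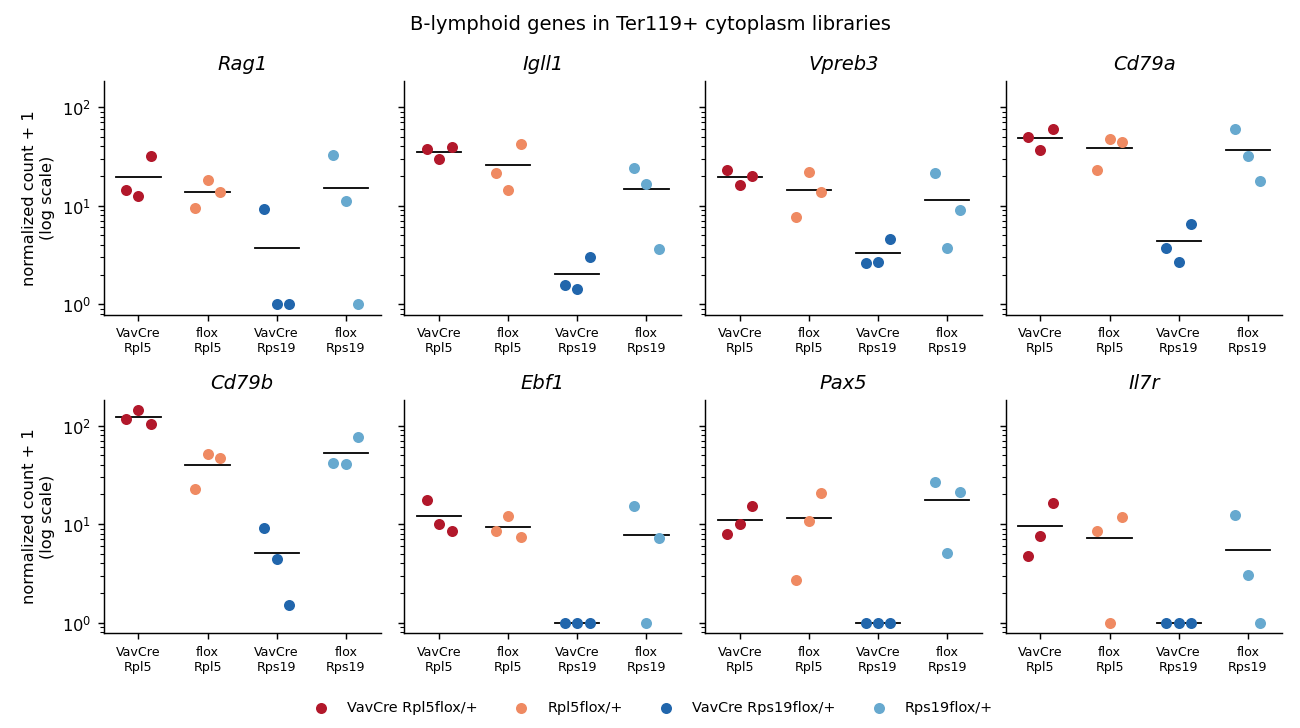
Normalized count plus 1 (log axis) of the 8 B-lymphoid genes in each Ter119+ cytoplasm library, drawn as for the Kit+ libraries, with 3 libraries per group and black lines at the group means. The libraries labelled VavCre Rpl5flox/+ hold Cd79b at 101.5 to 142, and Ebf1, Pax5 and Il7r stand at 0 in all 3 VavCre Rps19flox/+ libraries.

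The lines therefore differed in Ter119+ cytoplasm for 3 of 5 genes, where 20.5% of all genes differed in that direction. The Rpl5 change less the Rps19 change was 3.54 (SE 0.47, adjusted p = 0.000106) for Cd79b, 2.00 (SE 0.49, adjusted p = 0.00529) for Cd79a and 1.58 (SE 0.54, adjusted p = 0.0319) for Igll1. The call of Igll1 was lost in 8 of 12 fits with a library left out, with adjusted p up to 0.0743; it held without replicate 3 of Rpl5flox/+, Rps19flox/+ or VavCre Rps19flox/+, or replicate 2 of the libraries labelled VavCre Rpl5flox/+. A comparison added after the data were seen set the change with Rpl5 in Ter119+ cells against that in Kit+ cells. It passed with a positive sign for 7 of 7 genes, as it did for 25.8% of all genes, with a median of 2.77, from 2.16 (Cd79b) to 2.87 (Igll1) and adjusted p up to 0.00203. The filter on low values averaged both cell types here and for Rps19, so Ebf1 and Pax5 entered through their Kit+ levels. They did not pass it in Ter119+ cytoplasm alone. With voom 6 of 7 passed, all but Pax5 (adjusted p = 0.0593). The same comparison for Rps19 passed for 5 of 7 genes, all positive, as it did for 3.93% of all genes. With log2 of the count plus 1, or with voom, it gave 1 of 7 for Rps19, namely Vpreb3. In both lines the low Ter119+ flox levels limited how large a fall the deposited scale could record there. A positive difference is thus in part set by that scale, and it does not by itself show a smaller fall in Ter119+ cells.

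Other values of the Ter119+ libraries differed between the groups. Kit averaged 777 ± 67.2 normalized counts in the cytoplasm libraries labelled VavCre Rpl5flox/+ against 45.4 ± 32.9 in Rpl5flox/+, and 308 ± 69.5 in VavCre Rps19flox/+ against 41.8 ± 33.9 in Rps19flox/+ (SD, n = 3 each). All 10 erythroid markers were lower in the libraries labelled VavCre Rpl5flox/+, where 30.1% of all genes were lower, and 16 of 18 granulocyte and monocyte markers were higher, with sums of 58234 to 118806 against 11091 to 20963 in Rpl5flox/+. In VavCre Rps19flox/+ 13 of those 18 were lower, and 9 of 12 macrophage markers were lower, with sums of 778 to 1318 in VavCre Rps19flox/+ against 1588 to 4992 in Rps19flox/+. The part of these differences in the B-lymphoid values was not tested.

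Polysome libraries ask whether the remaining messages were bound by ribosomes, and depth limited the answer. In Kit+ flox pools, polysome minus cytoplasm, 2 of 8 genes were lower, where 37.4% of all genes were lower. The log2 difference was -3.55 (SE 0.60, adjusted p = 0.00166) for Rag1 and -2.37 (SE 0.27, adjusted p = 0.000173) for Il7r. Rag1 had 0 reads in 5 of the 6 flox polysome libraries and 51.2 normalized counts in Rpl5flox/+ replicate 2, and Il7r had 0 reads in all 6. Both genes passed the filter on low values through the cytoplasm. The value of Il7r is its cytoplasmic level above 0 reads with the sign turned, and its SE holds no spread of polysome values. Neither value measures ribosome binding well. The median difference over all genes tested was -1.32. Igll1 had 246, 258 and 133 normalized counts in Rpl5flox/+ polysome and 1599, 306 and 331 in Rps19flox/+ polysome. In Ter119+ flox pools 0 of 5 genes passed between the fractions by limma, where 26.7% of all genes passed in either direction, none had an unadjusted p below 0.05, and voom gave 0 as well. On polysomes of flox libraries 2 of 6 genes, Igll1 (-4.02, adjusted p = 0.00622) and Pax5 (-3.93, adjusted p = 0.00888), were lower in Ter119+ than in Kit+ cells, where 7.33% of all genes were lower. The pooled level of Pax5 was 3.79 in Rpl5flox/+ and 0 in Rps19flox/+ Ter119+ polysome, so it entered through its Kit+ level. The median change over all genes tested was 0.56.

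On Kit+ polysomes 2 of 7 genes fell with Rps19, where 3.68% of all genes fell. The median change over all genes tested was 1.11, so the log2 changes are not measured from a scale centred on 0. The libraries of these groups differed in quality. Lars2 alone took 0.382% to 4.51% of reads in VavCre Rps19flox/+ polysome against 10.3% to 54.9% in Rps19flox/+ polysome. Of all genes 4.36% to 11.2% had 0 reads in VavCre Rps19flox/+ polysome, against 28.5% to 60.9% in Rps19flox/+ polysome, and depth was 10.8 to 37.6 M reads against 1.01 to 7.17 M. The part of these differences in the fall was not tested. Igll1 had 17.4, 1.63 and 3.72 normalized counts in VavCre Rps19flox/+ polysome, against 1599, 306 and 331 in Rps19flox/+ polysome (log2 change -4.99, SE 1.08, adjusted p = 0.0185). Pax5 had 0, 0.408 and 0.745 in VavCre Rps19flox/+ polysome, against 831, 99.5 and 199 in Rps19flox/+ polysome (log2 change -4.91, SE 1.09, adjusted p = 0.0208). The groups were apart for both genes, as for 9.38% of all genes with VavCre lower, and over the group the pooled level of Pax5 was 311-fold lower (118 to 1161; 4 reads against 107). With replicate numbers blocked neither passed (adjusted p = 0.0738 and 0.0753), and neither passed when VavCre Rps19flox/+ replicate 1, 2 or 3 was left out. Cd79a had 22.3, 2.45 and 12.2 in VavCre Rps19flox/+ polysome, against 312, 165 and 0 in Rps19flox/+ polysome, and the 0 belonged to a library of 1.83 M reads. Those groups overlapped, as did the groups of Vpreb3, Cd79b and Ebf1.

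The single VavCre Rpl5flox/+ Kit+ polysome library held 0 reads of Igll1, Vpreb3, Cd79a, Cd79b, Ebf1, Pax5 and Il7r, but 62.1 normalized counts (30 reads) of Rag1. Over the 3 Rpl5flox/+ polysome libraries there were 177 reads of Igll1, 151 of Cd79a, 117 of Cd79b, 81 of Vpreb3 and 41 of Pax5. Against a floor of 3 reads the level was at least 38.9-fold lower for Igll1, 33.2-fold for Cd79a, 25.7-fold for Cd79b, 17.8-fold for Vpreb3 and 9.0-fold for Pax5. These bounds allow for counting error only. Lars2 took 26.3% of reads in the single library, against 12.6% to 49.4% in Rpl5flox/+ polysome. Of all genes 32.3% had 0 reads in it, against 31.9% to 49.9% in Rpl5flox/+ polysome. The fit takes the spread of the single library from the remaining groups, so its calls speak of that library and not of the genotype. It called 0 of 7 genes, where 1.82% of all genes passed in either direction. The unadjusted p was below 0.05 for 5 of them, Rag1 with a higher value and Igll1, Vpreb3, Cd79a and Cd79b with lower ones, and voom called 0. Without the libraries under 2 M reads 4 were called lower (Igll1, Vpreb3, Cd79a and Pax5), but the calls over all genes then numbered 1916, against 192 with every library.

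**Figure D5:**
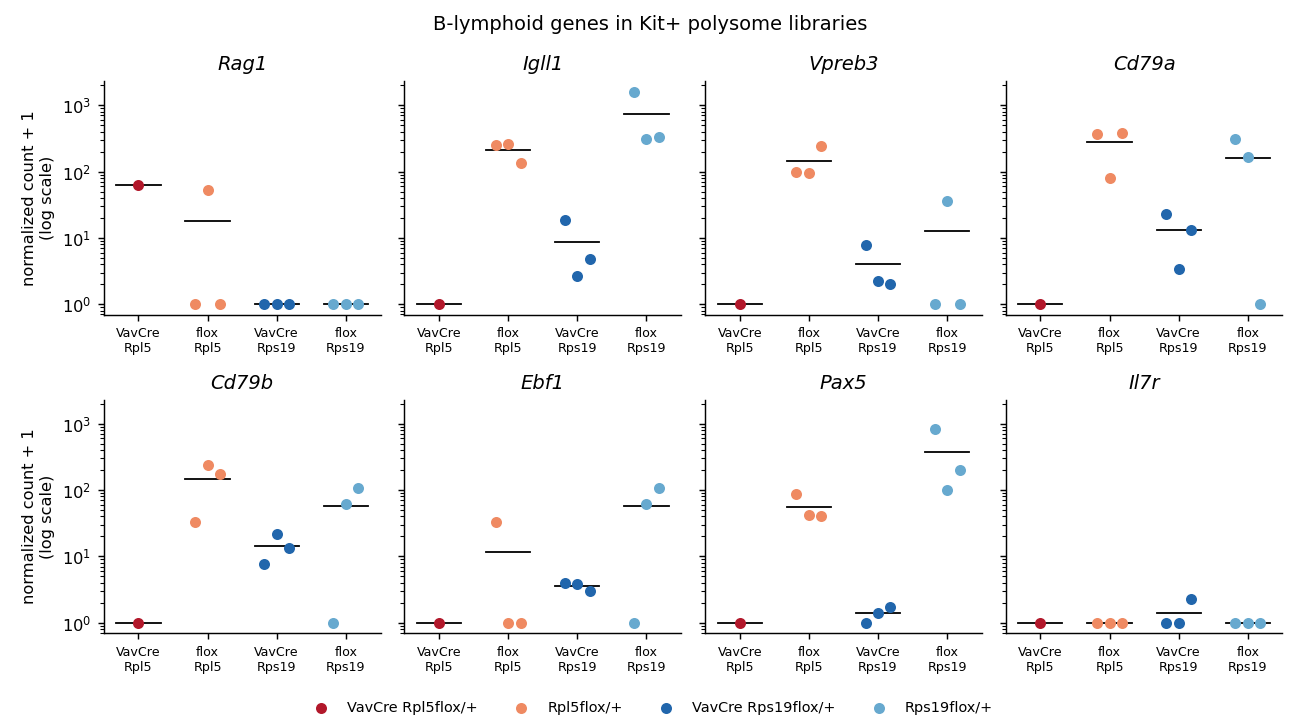
Normalized count plus 1 (log axis) of the 8 B-lymphoid genes in each Kit+ polysome library; VavCre Rpl5flox/+ has 1 library and the other groups have 3, and black lines are group means. Points at 1 are libraries with 0 reads, and 1 read is worth up to 20.8 normalized counts in the shallowest library.

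Whether the fall with Rps19 was larger or smaller on polysomes than in cytoplasm was tested within Kit+ pools, and 1 of 7 genes passed with a positive sign, as did 10.6% of all genes. That gene was Rag1 (3.09, SE 0.39, adjusted p = 0.0162), which had 0 reads in all 6 polysome libraries of the line, so the value is its cytoplasmic change with the sign turned. The median of this difference over all genes tested was 1.20. On Ter119+ polysomes 0 of 4 tested genes passed with Rpl5, where 13.2% of all genes passed in either direction, and 0 of 4 with Rps19, where 0.801% did. One of the 4 had an unadjusted p below 0.05 in each, Cd79a, with 0, 11.6 and 0 normalized counts in the libraries labelled VavCre Rpl5flox/+ against 52.7 and 72.2 in Rpl5flox/+, and 2.19, 0 and 0 in VavCre Rps19flox/+ against 49.4, 39.3 and 108 in Rps19flox/+. The groups of Cd79a were apart in both lines, as for 32.7% (Rpl5) and 9.08% (Rps19) of all genes with VavCre lower. The adjusted p was 0.0942 with Rpl5 and 0.164 with Rps19, and voom called 0 with Rpl5 and 1 with Rps19. In the libraries labelled VavCre Rpl5flox/+, 1 read was worth 6.28 normalized counts in replicate 1. It was worth 30.5 in replicate 3, with 1.02 M reads, so the 0 of Cd79a there says little about its level. The median change over all genes tested was -1.004 with Rpl5 and 0.511 with Rps19. The log2 changes are thus not measured from a scale centred on 0.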

How the data were processed

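Poly(A) RNA was measured in 45 libraries. The deposited log2 values have the form of variance-stabilised counts that the authors first scaled by library. The submitters' processing notes name mm10; aligner and counter: not given in the sources used here. The transformation was inverted (lowest deposited value 2.92263, which stands for 0 reads) and gave whole reads for 100.0% of values up to 100000 reads, within 0.01 read. No pair of replicates was a copy (lowest chi-square per degree of freedom 21.13 over 43 pairs).

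Two-sided tests were made with limma 3.58.1 under R 4.3.3, with a variance trend, on the deposited log2 values. Genes entered when their normalized counts averaged 10 or more, with Benjamini-Hochberg adjustment over them and a threshold of 0.05. The 4 genotypes of a cell type and fraction shared 1 estimate of the spread, and comparisons between fractions had the pool as a block. Because the transformation compresses low values, counts were also compared as pooled levels, with exact 95% counting intervals (scipy 1.17.1 in Python 3.11.15) or a floor of 3 reads over a group. Deviations of libraries with the same replicate number correlated for every replicate in Rpl5 Kit+ and Ter119+ cytoplasm (0.234 to 0.305 and 0.127 to 0.256). In Rps19 Ter119+ cytoplasm the correlations were 0.381, 0.028 and 0.055, and in the other comparisons -0.039 to 0.072. The genotype fits had no replicate block, which was run as an alternative. The labels' batch tag differs for every pool, so batch and pool cannot be told apart.

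Named genes outside the set were the 8 most correlated with it and up to 4 of each list with the smallest adjusted p, of which the text gives a subset; some are not reported here. Of the symbols 13226 were found in the RefSeq table of GRCm38.p6. The members and lists were chosen with earlier results of these data known. On simulated data with the spread of Rps19 Kit+ cytoplasm (10853 genes) a log2 change of 1 was called for 82% and of 2 for 95.9% of changed genes. On Kit+ polysome (10288 genes) these were 0% and 8.70%. Only a small part of the genes was changed in the simulation, fewer than were called in the data, so these shares may not carry over to the data.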

Additional observations from a re-analysis of the deposited data

Results flagged for a closer look

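Changes that differed between the lines or between the cell types, by a test of the difference itself (limma, adjusted over all genes), are gathered here as log2 differences. Rpl5 minus Rps19 in Kit+ cytoplasm gave 1.08 for Cd79a and 1.71 for Cd79b, and in Ter119+ cytoplasm 1.58 for Igll1, 2.00 for Cd79a and 3.54 for Cd79b. In Kit+ cytoplasm both genes fell in both lines, by less in the Rpl5 line. In Ter119+ cytoplasm all 3 genes fell with Rps19, while with Rpl5 Cd79b rose and Igll1 and Cd79a did not pass (log2 changes 0.39 and 0.31).

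The change with Rpl5 in Ter119+ minus that in Kit+ cytoplasm was 2.80 for Rag1, 2.87 for Igll1, 2.77 for Vpreb3, 2.78 for Cd79a, 2.16 for Cd79b, 2.51 for Ebf1 and 2.30 for Pax5. With voom Pax5 did not pass (adjusted p = 0.0593) and the other 6 did. The Ter119+ libraries in this difference are those in which Rpl5 went against the label. Ebf1 and Pax5 passed the filter on low values only with the Kit+ libraries included. The same difference for Rps19 was 2.18 for Rag1, 2.35 for Igll1, 2.43 for Vpreb3, 1.86 for Cd79a and 1.73 for Ebf1. Of these 5, Vpreb3 alone passed with log2 of the count plus 1 or with voom. In both lines the low Ter119+ flox levels limited how large a fall the deposited scale could record in those cells. The polysome minus cytoplasm difference of the Rps19 change in Kit+ cells was 3.09 for Rag1, a gene with 0 reads in all 6 polysome libraries of that line.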

How the results depend on the processing

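In Kit+ cytoplasm 8 of 8 genes were called lower in both lines under each alternative that tested all 8, and 8 whichever library was left out; 6 were called where 6 passed a mean of at least 50. The counts that moved by over 1.5 times follow. The difference between the lines in Kit+ cytoplasm was called for 2 genes, 7 with log2 of the count plus 1, 7 with voom, 1 with no filter and 1 to 5 with a library left out. At a mean of at least 50 the counts were 1 of 1 gene for Rps19 in Ter119+ cytoplasm, 1 of 1 for the difference between the lines there, 1 for polysome minus cytoplasm in Kit+ flox pools, 0 for the Rps19 change on polysomes minus cytoplasm, and 3 of 3 for Rpl5 and 2 of 3 for Rps19 in Ter119+ minus Kit+. Rpl5 on Kit+ polysomes had 0 calls, and 4 without libraries under 2 M reads. Rps19 on Kit+ polysomes had 2 calls, 0 with the replicate block and 0 to 2 with a library left out. The block also changed the call of Igll1 in the difference between the lines in Kit+ cytoplasm, and that of Vpreb3 in the Rps19 change on polysomes minus cytoplasm, which passed with no replicate block (3.05, adjusted p = 0.0335). It changed no other call. Rps19 on Ter119+ polysomes had 1 call with voom, and Rpl5 there 0 to 1 with a library left out (1 without VavCre Rpl5flox/+ replicate 2). The Rps19 change on polysomes minus cytoplasm was called for 2 genes with no filter, 2 with no replicate block, 0 with voom and 0 to 4 with a pool left out (4 without Rps19flox/+ replicate 2, 0 without any 1 VavCre pool). The Rps19 change in Ter119+ minus Kit+ cells was called for 1 gene with log2 of the count plus 1, 1 with voom and 3 to 4 with a library left out. The causes were not tested.

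Values that turned sign were not called in either form. On polysomes of the Rpl5 line in Ter119+ cells they were Il7r (0.013 rescaled, 0.83 with the replicate block, 0.53 with voom, 0.83 without libraries under 2 M reads; -0.09 as reported) and Cd79b (-0.55 with log2 of the count plus 1). In the Rps19 line there Cd79b gave -0.0031 rescaled and -1.26 with voom. Polysome minus cytoplasm gave -0.32 for Pax5 in Kit+ cells without libraries under 2 M reads and 0.18 for Igll1 in Ter119+ cells with voom. The Rps19 change in Ter119+ minus Kit+ gave -0.54 (log2 of the count plus 1) and -0.82 (voom) for Cd79b and -0.20 (voom) for Pax5. With a library left out, values that could turn sign ranged from -0.0017 to 0.43 for Rag1 with Rpl5 in Ter119+ cytoplasm, from -0.53 to 0.80 for Vpreb3 and -1.91 to 0.081 for Cd79b with Rps19 on Kit+ polysomes, from -0.71 to 1.43 for Cd79b and -0.48 to 0.83 for Il7r with Rpl5 on Ter119+ polysomes, from -1.48 to 0.18 for Igll1 and -0.47 to 0.96 for Cd79b with Rps19 there, from -0.58 to 0.17 for Igll1 in Ter119+ polysome minus cytoplasm, and from -0.35 to 2.23 for Ebf1 in the Rps19 change on polysomes minus cytoplasm. On polysomes the count over all genes was unstable: 21 to 1916 for Rpl5 (192 as reported) and 362 to 2517 for Rps19 (1041) in Kit+ cells, 423 to 2407 for Rpl5 (1406) and 4 to 673 for Rps19 (85) in Ter119+ cells, and 1 to 4461 for the Rps19 change on polysomes minus cytoplasm (1432).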
